A study of Schizosaccharomyces pombe with 88 samples.

Results

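RNA levels of the cytosolic ribosomal protein (RP) genes of the fission yeast Schizosaccharomyces pombe were followed through synchronous growth and a replication block. Members were chosen by name: every gene whose probes carry a single platform symbol that begins with rpl, rps or rpp and a digit. This took 126 genes of 4928 tested, with 252 probes, 2 for each gene, and all of them passed the filter on missing values. The symbols rpp1 and rpp40 are those of subunits of RNase P, the enzyme that trims the 5′ end of tRNA precursors, so these 2 genes are given apart. The remaining 124 RP genes comprised 73 of the large subunit, 44 of the small subunit and 7 of the acidic P stalk (rpp0, rpp101 to rpp103 and rpp201 to rpp203). Of these, 98 belonged to 47 families of 2 or 3 measured copies, and 26 were counted as having no other measured copy. The 26 include the platform symbol rpl18, which matched no current gene and was kept apart from rpl1801 and rpl1802.

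Each RP is a structural part of the cytosolic ribosome, and the subunits need near-equal numbers of each protein. Transcription of RP genes is known to follow growth: in yeasts it is high in rich medium through TOR and protein kinase A signalling and falls during many stresses. Most S. pombe RPs are encoded by several unlinked gene copies whose proteins are nearly or wholly identical. The P stalk proteins recruit translation factors to the large subunit, with rpp0 as the base to which the small acidic P1 and P2 proteins bind.

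Cultures were made synchronous by elutriation, which collects small cells, and released into early G2. The strains were 3 checkpoint mutants and wild type (WT), with no further allele or background named: rad3 is the gene of the ATR-like sensor kinase, and cds1 and chk1 are those of its downstream kinases for stalled replication and for DNA damage. Each strain was sampled at 0 min and then at 40, 80, 120, 160 and 200 min, with HU (hydroxyurea, 8 mM, which blocks ribonucleotide reductase and so runs down deoxynucleotides) or untreated. Every sample was compared on a two-colour array with the same pool of asynchronous untreated WT cells from mid-log culture. Values are log2 ratios to that pool, so a level of 0 equals the pool, and levels of different genes are not abundances. A condition is the mean of 2 array repeats, which the series calls technical. The labels name no replicate cultures, so strain cannot be told apart from culture and the p-values cover no more than the spread among these samples, which may be technical. In such bulk RNA, fewer cells of a kind and less RNA per cell cannot be told apart.

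Of 88 arrays, 82 were used. The 6 arrays labelled chk1 of 120 min (both arms) and of HU 200 min were left out, since each correlated best with a WT array of the same arm and time (r from 0.926 to 1.000) and at most at 0.702 with any other chk1 array. For chk1 under HU at 160 min the repeats had 77.1% of values equal, against at most 1.60% in the other 40 conditions, and count once like every condition. The mutated genes lay at -2.81 to -2.45 for rad3 in rad3 cells, at -3.22 to -2.70 for cds1 in cds1 cells and at -1.55 to -0.53 for chk1 in chk1 cells. The highest chk1 value, -0.53, was that of HU at 160 min and lay within the range of chk1 RNA in the other strains (-0.83 to 0.29), so its strain is in doubt and it is written here as the arrays labelled chk1. Over RP genes, the 2 repeats correlated with a median r of 0.56 in rad3, 0.93 in cds1, 0.99 in chk1 and 0.37 in WT. WT repeat 1 gave lower RP levels than WT repeat 2 in all 11 conditions, by a median of 0.40 (range of the shift, repeat 1 minus repeat 2, -0.62 to -0.18).

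The 2 probes of an RP gene followed each other closely, with a median r of 0.906 across 41 conditions, against 0.722 for all genes with 2 probes. For 120 RP genes this r ran from 0.715 to 0.983. For 4 it was below 0: rpl3703 (-0.71), rps2802 (-0.69), rpl18 (-0.37) and rps2502 (-0.19). In rps2802 one probe read from 2.62 to 3.88 at 0 min and the other from -0.99 to -0.31. Gene means of these 4 average probes that disagree and are named as such wherever they occur.

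RP levels were lowest at 0 min and climbed most steeply by 40 min, as the plot of RP medians by strain and time shows. The mean over strains went on climbing to 120 min, but strains differed. Untreated rad3 repeats had RP medians of 0.65 and 0.43 at 80 min and 0.43 and 0.37 at 120 min. Those of cds1 read 0.73 and 0.55 at 120 min and 0.79 and 0.81 at 160 min. At 0 min the median over the 124 RP genes was -0.25 in rad3, -0.40 in cds1, -0.70 in chk1 and -0.33 in WT. Averaged over strains, the median was -0.42 ± 0.19 at 0 min (SD, n = 4), 0.32 ± 0.24 at 40 min (n = 4), 0.49 ± 0.20 at 80 min (n = 4), 0.67 ± 0.26 at 120 min (n = 3), 0.63 ± 0.20 at 160 min (n = 4) and 0.48 ± 0.11 at 200 min (n = 4) without HU. All 4 strains were thus below the asynchronous pool at 0 min and above it at every later untreated time. In a fit with strain and time terms over the 23 conditions without HU (limma, moderated F test over time, Benjamini-Hochberg adjustment over all genes), 122 of 124 RP genes varied with time at an adjusted p under 0.05. The same held for 78.9% of all genes. The 2 not called were rpl3703 and rpl18, both with disagreeing probes. Without the 0 min samples, 61 of 124 RP genes were called, a share close to the 48.0% of all genes.

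**Figure D1:**
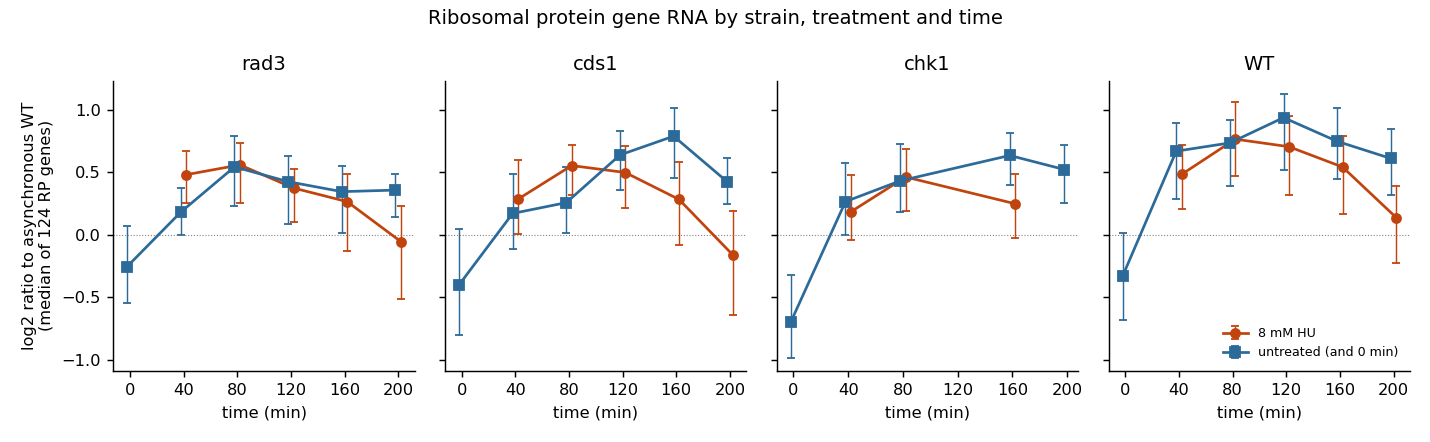
Median log2 ratio of 124 RP genes against the asynchronous WT pool (y axis) by time in minutes (x axis) for rad3, cds1, chk1 and WT, with HU in circles and untreated samples, with the 0 min start, in squares; bars run from the 10th to the 90th percentile over genes, and lines bridge the left-out chk1 times. Untreated medians rise above 0 by 40 min in each strain, and HU medians lie below untreated ones at 160 and 200 min.

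The mean over strains was lowest at 0 min for 122 RP genes, and highest at 120 min for 75 and at 160 min for 39. The 120 min mean lacks chk1, and with a strain term the median difference of 160 min minus 120 min was -0.00, so the order of these times is not settled. The range of the 6 time means had a median of 1.10 over the 124 genes. It was widest in rpl102 (1.66), a protein of the L1 stalk that handles the leaving tRNA, and in the stalk genes rpp101 (1.50) and rpp201 (1.46). It was narrowest in rpl18 (0.17), rpl3703 (0.23) and rps2502 (0.27), whose probes disagree, and among genes of agreeing probes in rpl4101 (0.53), rpl1603 (0.53) and rpp202 (0.56). The gene rpl102 stood at -0.51 ± 0.23 at 0 min and 1.15 ± 0.29 at 40 min (SD, n = 4 strains), its highest mean, whereas rpp101 was highest at 120 min (0.60 ± 0.22, n = 3). Only 3 RP genes had their highest time mean at 40 min.

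Between 40 and 0 min the rise was near-universal. At 40 min against 0 min, 118 RP genes rose and 1 fell at an adjusted p under 0.05 (limma), which is 95.2% rising, against 37.6% of all genes rising, 30.1% falling and 67.7% called in either direction. The median log2 difference was 0.71 over RP genes and 0.05 over all genes. Within strains the median RP difference was 0.42 in rad3 (118 of 124 genes above 0), 0.54 in cds1 (120), 0.94 in chk1 (123) and 0.99 in WT (122). Of all genes, 54.4% were above 0 in rad3, 54.2% in cds1, 53.5% in chk1 and 52.8% in WT. The count called was at least 109 in each setting that left out a strain or a repeat set. The sole gene called as falling was rps2802, whose probes gave mean differences of -1.91 ± 0.57 and 0.78 ± 0.40 (SD, n = 4).

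**Figure D2:**
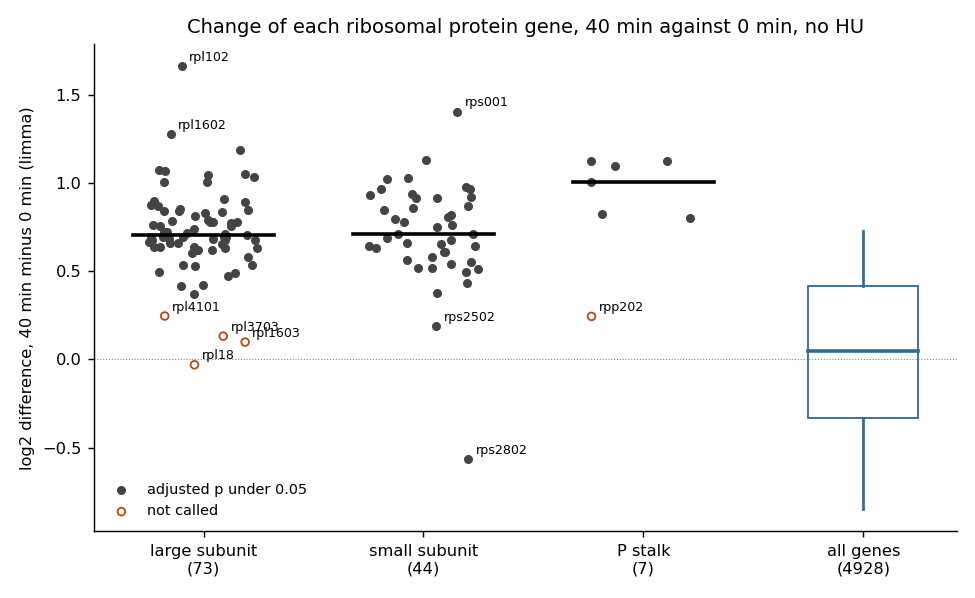
Log2 difference of 40 min minus 0 min without HU (y axis, limma estimate over 4 strains) for each RP gene of the large subunit, small subunit and P stalk, with group medians as bars, filled points at an adjusted p under 0.05 and open points above it; the box gives the quartiles and the whiskers the 10th and 90th percentiles of all genes. All but 2 RP points lie above 0, rpl102 is highest at 1.66, and the median of all genes is 0.05.

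The largest rise was that of rpl102. It read 0.91 in rad3, 1.00 in cds1, 1.13 in chk1 and 1.57 in WT at 40 min, against -0.19 in rad3, -0.55 in cds1, -0.75 in chk1 and -0.54 in WT at 0 min. The time groups did not overlap, and the difference was 1.66 ± 0.14 (SE, adjusted p 2.6e-09), or 3.16-fold. The second was rps001, a small subunit protein related to the mammalian laminin receptor precursor. It read 0.27 in rad3, 0.49 in cds1, 0.75 in chk1 and 0.87 in WT at 40 min, against -0.99 in rad3, -0.88 in cds1, -0.83 in chk1 and -0.53 in WT at 0 min. Every strain crossed from below the pool to above it, by 1.402 ± 0.136 on average (adjusted p 2.33e-08).

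Other large subunit genes among the 10 largest rises were rpl1602 (1.27 ± 0.15), rpl3002 (1.19 ± 0.11) and both copies of rpl11, rpl1102 and rpl1101 (1.07 ± 0.11 and 1.07 ± 0.12), whose protein binds the 5S rRNA. The small subunit gene was rps2602 (1.13 ± 0.10), whose protein lies at the exit of the mRNA channel. The P stalk contributed rpp101 (1.13 ± 0.12), rpp103 (1.12 ± 0.10) and rpp203 (1.10 ± 0.13). The median difference was 0.71 in the large subunit (69 of 73 rose), 0.71 in the small subunit (43 of 44 rose) and 1.00 in the P stalk (6 of 7 rose). Both ribosomal subunits thus rose by the same amount at the median. RP genes with another measured copy had a median of 0.76 (93 of 98 rose), and those without one 0.63 (25 of 26 rose).

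Within the P stalk, rpp0 rose by 0.80 ± 0.13, rpp102 by 0.83 ± 0.09 and rpp201 by 1.00 ± 0.11. The P2 gene rpp202 was the exception at 0.24 ± 0.12 (adjusted p 0.086). It read -0.12 in rad3, 0.24 in cds1, -0.21 in chk1 and 0.23 in WT at 40 min, against -0.03 in rad3, 0.20 in cds1, -0.62 in chk1 and -0.38 in WT at 0 min, so the times overlapped. Besides rpp202, the genes not called were rpl1603 (0.10 ± 0.08, adjusted p 0.276), rpl4101 (0.25 ± 0.11, adjusted p 0.0525), one copy for the shortest RP, and rpl18 and rpl3703, whose probes disagree. Of the RNase P genes, rpp1 rose by 0.27 ± 0.12 (adjusted p 0.0413), and rpp40 stood at -0.09 ± 0.08 (adjusted p 0.316).

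Other genes of the ribosome pathway were taken from lists, to be read against the 37.6% of all genes that rose and the 30.1% that fell. Of 51 ribosome biogenesis genes, 46 rose and 1 fell (median 0.58), with fib1 (fibrillarin, 1.02 ± 0.12) and nop10 (0.98 ± 0.10) leading. Of 14 RNA polymerase I genes, 13 rose (median 0.68), and of 30 translation factors, 26 rose and 2 fell (median 0.55). Of 47 mitochondrial RP genes, which serve the separate ribosome of that organelle, 14 rose and 10 fell (median 0.02). Of 25 RP gene regulators and TOR pathway genes, 2 rose and 16 fell (median -0.28), among those that fell tor1 (-0.88 ± 0.09) and the kinase gene sck1 (-1.05 ± 0.10).

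Stress genes moved the opposite way over the same interval. Of 20 environmental stress genes, 1 rose and 17 fell at 40 min against 0 min (median difference -2.27), and their median level per strain ran from 0.05 to 0.56 at 40 min against 2.39 to 2.69 at 0 min. The 8 arrays of 0 min also had a wider spread over probes (SD 0.772 to 0.944) than the other 74 (0.342 to 0.709). With all arrays set to one distribution, 115 RP genes still rose and the RP median was 0.57. The part of the stress state or of the elutriation in the RP rise was not tested.

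After 40 min few RP genes passed the test between neighbouring times, although the RP median was higher at 120 min than at 40 min. At 80 min against 40 min, 4 RP genes rose. That is 3.2%, not above the 4.36% of all genes rising (8.28% called in either direction). They were rps23 (0.41 ± 0.12), rps403 (0.41 ± 0.11), rps2402 (0.40 ± 0.12) and rpl1603 (0.32 ± 0.08). None of the 4 calls held without WT, without chk1 or without repeat 2. At 120 min against 80 min no RP gene was called (11.1% of all genes; 6 RP genes at an unadjusted p under 0.05, and 1 called without rad3). At 160 min against 120 min (4.0% of all genes) and at 200 min against 160 min (5.56%) none was called either, with 0 and 11 RP genes at an unadjusted p under 0.05. Shares of all genes at the unadjusted cut are not given here or below. The RP medians of these steps were 0.19, 0.14, -0.00 and -0.17.

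During the first 120 min no RP gene passed the test for HU, though medians moved in some strains. For the test of HU, the unit was the difference HU minus untreated of the same strain and time (18 differences), with rad3 and cds1 as one group and chk1 and WT as the other (WT alone at 120 and 200 min). No RP gene was called at 40, 80 or 120 min in either group by limma, where 0.0% of all genes were called at 40 and 80 min. At 120 min the share of all genes was 0.609% in rad3 and cds1 and 0.325% in WT. At an unadjusted p under 0.05 there were 46, 4 and 2 RP genes in rad3 and cds1 at 40, 80 and 120 min, and 6, 2 and 7 in chk1 and WT. The share of all genes at this unadjusted cut is not given here, so these counts have no background beside them.

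In WT at 120 min the RP median was 0.70 with HU against 0.94 untreated, with a median difference of -0.22 and 118 of 124 RP genes below 0. Over all genes the median difference of WT at 120 min was -0.01 (10th to 90th percentile -0.24 to 0.26). The share of all genes below 0 is not given here. In cds1 at 80 min it was 0.55 with HU against 0.26 untreated, with a median difference of 0.26. The WT difference at 120 min was thus close in size to that of WT at 160 min (-0.23).

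At 40 min the RP median of HU minus untreated was 0.31 in rad3, 0.09 in cds1, -0.08 in chk1 and -0.16 in WT. The rad3 value rested on 1 array: the untreated 40 min repeats of rad3 had RP medians of 0.51 and -0.16 and correlated over RP genes at -0.32, whereas the HU repeats read 0.42 and 0.56. Without repeat 2 the median of rad3 and cds1 was 0.02. The difference between the strain groups at 40 min was called for 0 RP genes (0.0406% of all genes). At an unadjusted p under 0.05 there were 57 RP genes, and the share of all genes at that cut is not given here.

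At 160 min the RP median was lower with HU than without it in all strains, and by 200 min the RP median was near 0. At 160 min the RP median was 0.27 with HU against 0.35 untreated in rad3, 0.28 against 0.79 in cds1, 0.25 against 0.64 on the arrays labelled chk1 and 0.54 against 0.75 in WT. At 200 min it was -0.05 against 0.36 in rad3, -0.16 against 0.42 in cds1 and 0.14 against 0.61 in WT. The share of RP genes lower with HU at 160 min was 69.4% in rad3, 97.6% in cds1, 96.8% in WT and 99.2% on the arrays labelled chk1. At 200 min it was 97.6% in rad3, 97.6% in cds1 and 99.2% in WT. The share of all genes lower in each strain is not given here. Over all genes the median difference in rad3 and cds1 was 0.02 at 160 min and -0.02 at 200 min. In WT and the arrays labelled chk1 at 160 min, and in WT at 200 min, it was -0.01. The median difference in rad3 was -0.06 at 160 min and -0.40 at 200 min, the smallest of the strains at both times, and rad3 was not tested against the others by itself. Untreated rad3 repeat 1 of 160 min had a median over all genes of -0.17. With all arrays set to one distribution the 160 min differences were -0.18 in rad3, -0.76 in cds1, -0.40 in WT and -0.59 on the arrays labelled chk1.

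**Figure D3:**
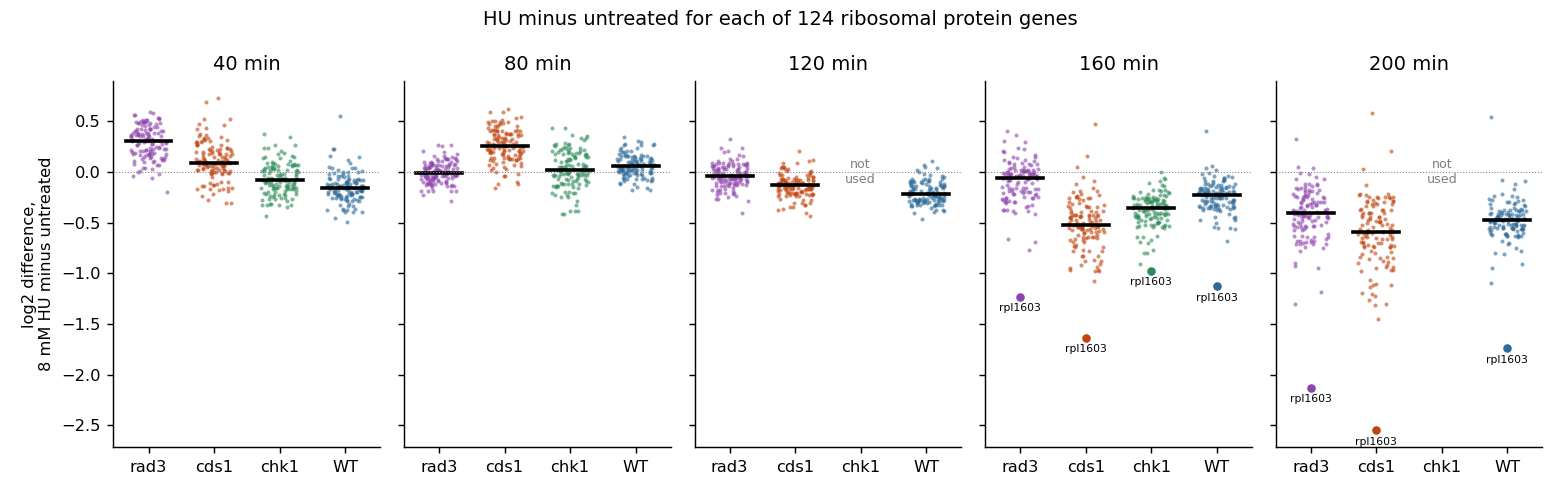
Log2 difference of HU minus untreated (y axis) for each of 124 RP genes in rad3, cds1, chk1 and WT (x axis), with a panel per time and black bars at the strain medians; chk1 arrays of 120 and 200 min are not used. The 160 min HU arrays labelled chk1 are of doubted strain. Strain medians lie on both sides of 0 at 40 min and below 0 at 160 and 200 min, 118 of 124 WT points lie below 0 at 120 min, and rpl1603 is the lowest point of each strain at both times.

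The counts of called genes differed more between the strain groups than the medians did. At 160 min, 43 RP genes fell and 1 rose in rad3 and cds1 (limma, adjusted p under 0.05), against 17.2% of all genes falling, 21.2% rising and 38.3% called. In WT and the arrays labelled chk1, 26 fell and none rose, against 10.5% of all genes falling and 20.4% called. Leaving out a strain leaves 1 difference in its group, with the spread taken from the other group. The rad3 and cds1 count was then lower without cds1 but higher without rad3, and the reason was not tested. In the rad3 and cds1 group 3 RP genes were called without cds1 (median -0.06) and 78 without rad3 (median -0.52). In the other group 2 were called without the arrays labelled chk1 (median -0.23) and 9 without WT (median -0.36). With all arrays set to one distribution 76 were called in rad3 and cds1 and 85 in the other group. At 200 min, 87 fell and 1 rose in rad3 and cds1 (18.9% of all genes fell, 17.0% rose and 35.9% were called), and 45 were called without cds1. In WT alone, whose spread is taken from the other strains, 28 fell (5.58% of all genes fell, 11.4% were called), and 8 did so without repeat 2.

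The gene that rose in rad3 and cds1 at both times was rps2802, whose probes disagree. The median RP difference was -0.28 in rad3 and cds1 and -0.29 in WT and the arrays labelled chk1 at 160 min, and -0.50 in rad3 and cds1 and -0.48 in WT at 200 min. For all genes these medians lay between -0.02 and 0.02. The direct test of rad3 and cds1 against WT and the arrays labelled chk1 at 160 min called 0 RP genes (5.03% of all genes; 3 RP genes at an unadjusted p under 0.05), with a median difference of 0.01, a middle 80% of the genes from -0.18 to 0.21, and extremes of -0.38 and 0.47. Equal responses are not shown by this.

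The members differed widely in how far they fell. In rad3 and cds1 at 200 min the 10 largest falls were those of rpl1603 (-2.34 ± 0.12), rpl302 (-1.31 ± 0.11), rpl3002 (-1.20 ± 0.14), rpl102 (-1.15 ± 0.12), rpp0 (-1.02 ± 0.13), rpl401 (-1.01 ± 0.17), rpl15 (-0.98 ± 0.14), rpl1902 (-0.97 ± 0.12), rps1202 (-0.96 ± 0.13) and rpl402 (-0.93 ± 0.14). All but rps1202 belong to the large subunit or its stalk, which hold 73 and 7 of the 124 RP genes. Over all members, 69.9% of large subunit, 72.7% of small subunit and 57.1% of P stalk genes fell. In WT at 200 min the largest called falls were those of rpl1603 (-1.74 ± 0.17), rpl102 (-1.10 ± 0.16), rpl401 (-0.94 ± 0.24), rpl3002 (-0.91 ± 0.20), rpl2502 (-0.80 ± 0.17) and rpp0 (-0.78 ± 0.19). Of these, the calls of rpl401 and rpl3002 were lost with all arrays set to one distribution, and that of rpp0 without repeat 2. Over the 120 RP genes of agreeing probes, the differences in rad3 and cds1 and those in WT correlated at r = 0.70 at 200 min, a description across genes that share arrays and reference.

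The gene rpl302 encodes a protein at the peptidyl transferase centre. It read -1.07 in rad3 and -1.04 in cds1 with HU at 200 min, against 0.24 and 0.28 untreated, while WT read -0.37 under HU against 0.34 untreated. HU levels were below all untreated ones. The stalk base rpp0 read -0.73 in rad3 and -0.83 in cds1 with HU at 200 min, against 0.19 and 0.28 untreated, and -0.25 against 0.53 in WT. The acidic stalk genes were split: rpp102 (-0.69 ± 0.09), rpp103 (-0.64 ± 0.10) and rpp201 (-0.53 ± 0.15) fell in rad3 and cds1 at 200 min. The others stood at -0.25 ± 0.10 for rpp101, -0.13 ± 0.13 for rpp202 and -0.24 ± 0.13 for rpp203, with adjusted p-values of 0.073, 0.46 and 0.17. In WT at 200 min none of the 6 acidic stalk genes was called.

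At 160 min the largest falls in rad3 and cds1 after rpl1603 were those of rpl3402 (-0.82 ± 0.14), rpl102 (-0.81 ± 0.12), rps1401 (-0.74 ± 0.16), rpl402 (-0.68 ± 0.14), rps1001 (-0.66 ± 0.13) and rpl501 (-0.66 ± 0.12), and of these the call of rpl102 alone held without cds1. In WT and the arrays labelled chk1 they were those of rpl3402 (-0.73 ± 0.14), rpl102 (-0.66 ± 0.12), rpl3002 (-0.61 ± 0.14), rpl3802 (-0.59 ± 0.15), rpl302 (-0.55 ± 0.11) and rpl3601 (-0.55 ± 0.17), and of these the call of rpl3402 alone held without those arrays. The gene rpl102, which rose most after 0 min, was thus among the 4 largest falls in each of the 4 late tests. Across 120 RP genes, however, the 40 min rise and the fall at 200 min correlated at r = -0.26 in rad3 and cds1 and 0.02 in WT. The RNase P gene rpp40 was higher with HU in WT at 200 min (0.49 ± 0.15, adjusted p 0.041), while rpp1 stood at -0.16 ± 0.18.

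In rad3 and cds1 at 200 min, RP genes with another measured copy had a median difference of -0.54 (76 of 98 fell). Those without one had -0.33 (11 of 26 fell). In WT the medians were -0.49 (24 of 98 fell) and -0.44 (4 of 26 fell), and the difference between these groups was not tested. By subunit, the medians at 200 min were -0.50 in the large and -0.47 in the small subunit for rad3 and cds1, and -0.48 in each for WT.

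Among the other lists at 200 min, 15 of 51 ribosome biogenesis genes fell in rad3 and cds1 (median -0.22) and 5 in WT (median -0.17), with rrp5, a factor of pre-rRNA processing, at -1.35 ± 0.11 and -1.14 ± 0.15. Of 30 translation factors 15 fell in rad3 and cds1 (median -0.33) and 2 in WT (median -0.16). Of all genes 18.9% fell in rad3 and cds1 and 5.58% in WT, so the WT count of translation factors is near the background. Of 20 environmental stress genes 17 rose in rad3 and cds1 (median 1.00), and 13 rose and 1 fell in WT (median 0.89), with hsp16 at 3.28 ± 0.25 and 4.63 ± 0.36, against 17.0% and 5.86% of all genes rising. At 160 min 15 rose in rad3 and cds1 and 9 in WT and the arrays labelled chk1, against 21.2% and 9.88% of all genes rising. The median level of the stress genes at 200 min was 1.71 with HU against 0.71 untreated in rad3, 0.91 against -0.10 in cds1 and 1.08 against 0.25 in WT. The part of the stress response in the RP fall was not tested.

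One RP gene stood apart from all others under HU. Expression of rpl1603, 1 of 3 copies for a protein of the large subunit, read -1.61 in rad3, -1.49 in cds1, -1.03 in WT and -0.70 on the arrays labelled chk1 at 160 min under HU, while the untreated values of these strains were -0.38, 0.15, 0.10 and 0.28. At 200 min it read -2.05 in rad3, -2.17 in cds1 and -1.59 in WT with HU, against 0.08, 0.38 and 0.15 untreated. All HU values at both times lay below all untreated ones. The difference at 160 min was -1.43 ± 0.12 in rad3 and cds1 (adjusted p 7.77e-07) and -1.05 ± 0.12 in WT and the arrays labelled chk1 (adjusted p 1.92e-05). At 200 min it was -2.34 ± 0.12 in rad3 and cds1 (adjusted p 2.84e-08), a level of 0.198 of the untreated one, and -1.74 ± 0.17 in WT (adjusted p 1.52e-05). Its call held in every setting in all 4 tests.

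The drop of rpl1603 came late and was seen by both probes. With HU it read from -0.25 to 0.09 at 40 min, 0.09 to 0.34 at 80 min and -0.10 to 0.17 at 120 min over strains, against -0.35 to -0.04, 0.04 to 0.27 and -0.04 to 0.26 untreated. Its 2 probes correlated at r = 0.98 and gave mean HU differences of -1.26 ± 0.28 and -1.23 ± 0.29 at 160 min (SD, n = 4) and -2.12 ± 0.36 and -2.16 ± 0.46 at 200 min (SD, n = 3). The difference between strain groups at 160 min was -0.38 ± 0.17 (adjusted p 0.22).

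The other copies of that gene changed far less with HU, each read as a ratio to its own level in the pool. At 200 min under HU rpl1601 read -0.06 in rad3, -0.28 in cds1 and 0.43 in WT, where the untreated samples read 0.58, 0.53 and 0.99. In the same samples rpl1602 read 0.23, 0.19 and 0.90 with HU, against 0.84, 0.85 and 1.19 untreated. Both were lower with HU in each strain, and both fell by the test in rad3 and cds1 (-0.73 ± 0.14 and -0.63 ± 0.13) but not in WT (adjusted p 0.075 and 0.35). The difference between copies, tested as such, was 1.61 ± 0.11 for rpl1601 minus rpl1603 and 1.71 ± 0.15 for rpl1602 minus rpl1603 in rad3 and cds1 at 200 min, and 1.18 ± 0.16 and 1.45 ± 0.21 in WT, all with an adjusted p under 0.05. The same pairs differed at the start: at 40 min against 0 min the differences were 0.81 ± 0.12 and 1.18 ± 0.15, with 0.91 ± 0.13 in rpl1601, 1.27 ± 0.15 in rpl1602 and 0.10 ± 0.08 in rpl1603.

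**Figure D4:**
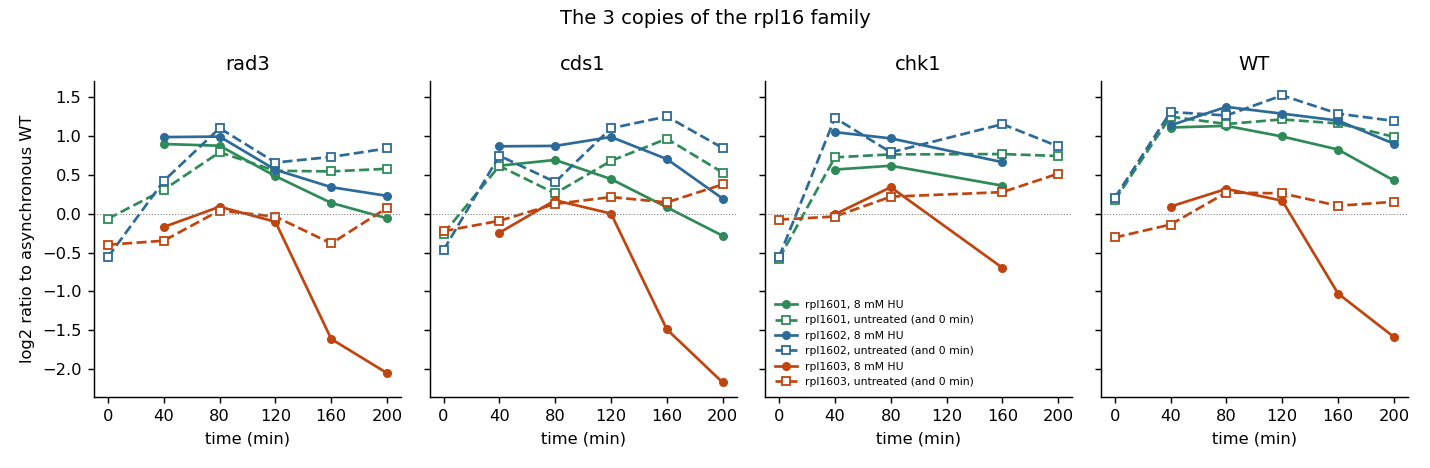
Log2 ratio to the asynchronous WT pool (y axis) of rpl1601, rpl1602 and rpl1603 by time in minutes (x axis) in rad3, cds1, chk1 and WT, with HU as solid lines and filled circles and untreated samples, with the 0 min start, as dashed lines and open squares; lines bridge the left-out chk1 times. With HU rpl1603 drops after 120 min, to between -2.17 and -1.59 at 200 min, while rpl1601 and rpl1602 stay between -0.28 and 0.90.

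Some pairs of copies of other RP genes also differed in their changes. The difference of each of 55 pairs of copies was tested as a row of its own beside all genes. At 40 min against 0 min, 24 of 55 pairs differed at an adjusted p under 0.05 (limma), in 20 of 47 families. That is a smaller share than the 67.4% of all genes and pairs called. Without the 2 pairs with a member of disagreeing probes, 22 of 53 did, and the median absolute difference was 0.17. The next largest were rpl101 minus rpl102 (-0.999 ± 0.104), rpp202 minus rpp203 (-0.85 ± 0.09) and rpp201 minus rpp202 (0.76 ± 0.13). The pairs rps2801 minus rps2802 (1.59 ± 0.23) and rpl3702 minus rpl3703 (0.74 ± 0.13) include copies whose probes disagree. Closest were the copies of rpl43 (0.64 and 0.64), rpl11 (1.07 and 1.07), rpl21 (0.68 and 0.69) and rps1 (0.54 and 0.57).

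Both copies of the L1 stalk protein rose, but rpl102 more than rpl101. At 40 min rpl101 read -0.01 in rad3, 0.06 in cds1, 0.08 in chk1 and 0.64 in WT. Each ratio to the pool was below that of rpl102 in the same strain. At 0 min rpl101 read -0.20, -0.43, -0.89 and -0.36, close to the ratios of rpl102. At 80 min against 40 min rpl101 minus rpl102 changed by 0.50 ± 0.10 (adjusted p 0.0035, with 8.31% of genes and pairs called), so that part of the gap closed. That call was lost without repeat 1 and without WT.

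Under HU at 160 min, 15 of 55 pairs differed in rad3 and cds1 (38.2% of genes and pairs called) and 6 in WT and the arrays labelled chk1 (20.3%), and without WT 1 pair was left in that group. At 200 min 21 differed in rad3 and cds1 (35.9%) and 5 in WT (11.4%). These pair shares were near or below those of all genes and pairs. Beyond rpl16, the pairs of agreeing probes named in both groups at 200 min were rpl3001 minus rpl3002 (0.98 ± 0.10 in rad3 and cds1, 0.54 ± 0.15 in WT) and rpl101 minus rpl102 (0.70 ± 0.11 and 0.70 ± 0.16). At 200 min under HU the copy rpl3001 read -0.01 in rad3, 0.16 in cds1 and 0.11 in WT, where the untreated samples read 0.15, 0.45 and 0.48. The copy rpl3002 read -0.78, -0.81 and -0.48 with HU, against 0.17, 0.65 and 0.43 untreated. Untreated ratios of the copies were close in rad3 and WT, and with HU the ratio of rpl3002 was the lower in each strain. Each ratio is to the gene's own level in the pool, so the more abundant copy is not known. The WT call of this pair was lost in 4 settings, without repeat 1 or 2 among them, and that of rpl101 minus rpl102 without repeat 1. In rad3 and cds1, rps1201 minus rps1202 (0.71 ± 0.13, lost without cds1) and rpl301 minus rpl302 (0.67 ± 0.13) followed. Probe sequences were not used here, so signal shared between near-identical copies cannot be told apart from equal change. Such sharing bears on pairs that look alike.

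**Figure D5:**
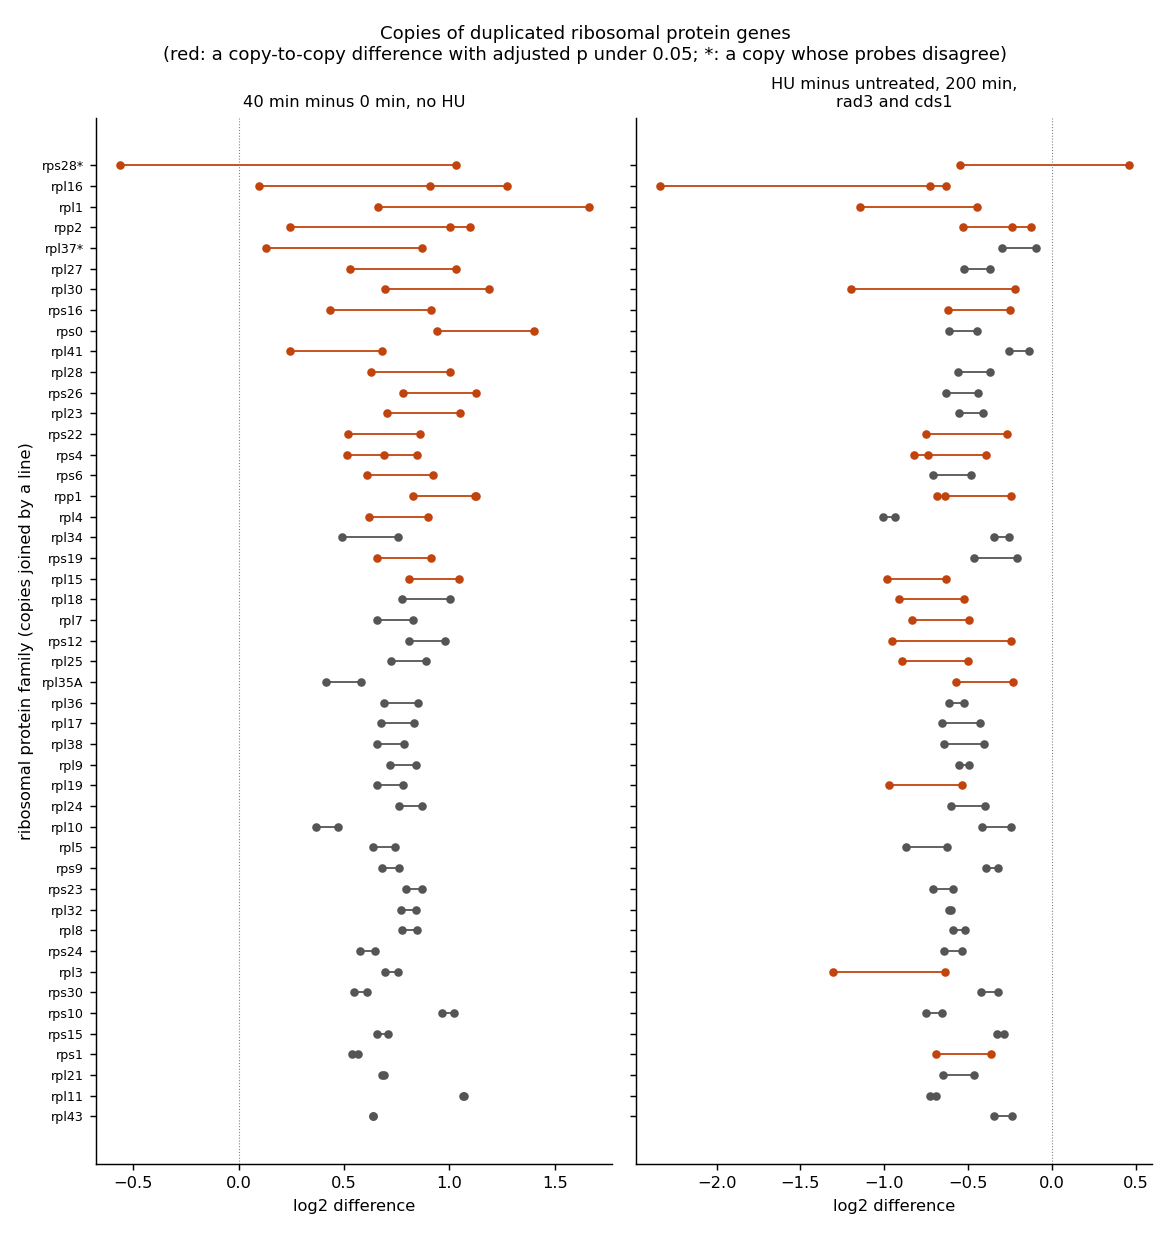
Log2 differences (x axis) of the copies in 47 RP families (y axis, ordered by the spread of the copies at 40 min minus 0 min), for 40 min minus 0 min without HU on the left and for HU minus untreated at 200 min in rad3 and cds1 on the right; lines join the copies, red marks families with a called pair and an asterisk a copy whose probes disagree. Among families of agreeing probes rpl16 has the widest spread in both panels, and rpl11 copies coincide at 1.07 on the left.

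Untreated mutants had lower RP levels than WT, a difference that was lost without repeat 2. In the same fit, 49 RP genes were lower in rad3 than in WT (6.51% of all genes lower, 9.92% called), 58 were lower and 4 higher in cds1 (20.2% lower, 19.9% higher, 40.2% called), and 43 were lower in chk1 (8.6% lower, 16.9% called), with RP medians of -0.29, -0.23 and -0.27. Without repeat 2 of every condition the counts were 27, 2 and 6 and the medians 0.05, 0.00 and -0.04. Without repeat 1 they were 103, 94 and 93, with medians of -0.66, -0.49 and -0.48. Averaged over the 6 conditions without HU, the RP median was 0.33 in WT repeat 1 and 0.78 in WT repeat 2.

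Among the 10 largest differences in each mutant, few calls held without repeat 2. These were rpl401 in rad3 (-0.48 ± 0.10, and -0.41 without repeat 2) and, in cds1, rpp0 (-0.63 ± 0.11, and -0.38) and rpp202 (0.28 ± 0.10, and 0.43), the last being lost without repeat 1. For cds1 minus WT, 26 of 55 pairs were called, a share near the 40.2% of genes and pairs called. Among them rpp201 minus rpp202 (-0.68 ± 0.11), rpp202 minus rpp203 (0.65 ± 0.08) and rps402 minus rps403 (0.58 ± 0.09) held in each setting. The genes rpl1602 and rpl1601 (-0.60 ± 0.12 and -0.54 ± 0.11 in rad3) had the opposite sign without repeat 2.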

How the data were processed

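The authors deposited a series table of log2 ratios of sample (Cy5, per the labels) to asynchronous WT pool (Cy3, per the labels), with background correction, normalization and spot filters each not given in the sources used here. That the scale is log2 was taken from the deposited values, 99.7% of which are the log2 of a ratio of 3 decimals (to within 0.01 of a thousandth). Platform annotation gave 1 symbol to 9632 of 9858 probes, several to 44 and none to 182. In the RefSeq gene table of ASM294v3, 125 of 126 members matched and rpl18 did not. The probes of rps2501 carry several symbols and lie outside the rule.

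Probes with values on fewer than 80% of arrays (35) were dropped, then probes were averaged per gene and repeats per condition. Tests used limma 3.58.1 (lmFit, eBayes) under R 4.3.3, with p-values adjusted by Benjamini-Hochberg across every gene measured (with 55 pair differences, 4983 in all) and called under 0.05. The time fit held 23 conditions (14 residual degrees of freedom) and the HU fit 18 differences (8). Scripts were tested on simulated data. Repeats are technical, so the number of conditions limits the precision.

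Members, lists, strain groups and tests were chosen with earlier results of these data known. Named were the 10 called RP genes that rose most and the 10 that fell most in a comparison (the first of these where fewer are printed), stalk genes, the 6 called pairs that differed most, the 4 closest families, the 3 widest and narrowest time ranges and up to 4 genes of each list. Copies of named genes, and genes singled out for probe agreement, were chosen after their values were seen. Of the translation factor list 30 of 36 genes were measured, and its member pab1 is a phosphatase subunit in this species.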

Additional observations from a re-analysis of the deposited data

Results flagged for a closer look

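WT lay far above the other strains in 4 medians. With HU at 160 min the WT median was 0.54 over all RP genes, 0.56 over large subunit genes and 0.54 over P stalk genes, against a lowest strain of 0.25, 0.26 and 0.19. At 40 min untreated the P stalk median was 0.66 in WT, against a lowest strain of 0.17. The WT values differ by repeat: the RP median was 0.29 in repeat 1 and 0.77 in repeat 2 with HU at 160 min, and 0.37 and 0.95 untreated at 40 min. Chance alone marks about 1 group in 20 in this way. The medians of HU at 160 min share arrays and genes, so they are not separate groups.

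At 40 min the RP median of HU minus untreated was above 0 in both rad3 (0.307) and cds1 (0.0932) and below 0 in both chk1 (-0.0819) and WT (-0.156). The opposite signs of these medians were not tested as such. The same contrast tested gene by gene called no RP gene.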

How the results depend on the processing

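Settings tried were quantile normalization, median centring, eBayes with trend, no filter, leaving out 1 array of shifted median, a repeat set or a strain, and arrays as samples with a block for the repeat number. Leaving out 0 min or the 4 genes of disagreeing probes, and the 40 min difference test, were added after seeing the data. Median centring, the eBayes option, no filter, the array and the 4 genes left each count of RP genes within 1.5 times. Leaving out a repeat or strain, counts ran 0 to 5 for 80 over 40 min, 0 to 1 for 120 over 80 min, 0 to 5 and 0 to 1 for HU in rad3 and cds1 at 40 and 120 min, 3 to 78 at 160 min and 45 to 96 at 200 min, 2 to 43 and 8 to 47 in WT and chk1 at 160 and 200 min, 27 to 103, 2 to 94 and 6 to 93 for rad3, cds1 and chk1 minus WT, and 1 to 5 for HU pairs. Quantile normalization gave 2 for 80 over 40 min, 1 for 200 over 160 min, 85 and 13 for WT and chk1 at 160 and 200 min, 76 for rad3 and cds1 at 160 min, and 30 and 12 for rad3 and chk1 minus WT. Without 0 min, counts were 61 over time, 10 for 80 over 40 min, and 101 and 25 for rad3 and chk1 minus WT. Here and below, WT and chk1 at 200 min means WT alone, and at 160 min it means WT and the arrays labelled chk1. The causes were not tested.

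With repeats as samples and the repeat number as a block, which counts technical repeats as samples, calls were 11 for 80 over 40 min, 2 for 200 over 160 min, 77 and 87 for WT and chk1 at 160 and 200 min, 15 and 77 for rad3 and cds1 at 40 and 160 min, 3 and 7 for the strain differences at 160 and 40 min, and 12 HU pairs, and it moved no other count by over 1.5 times. Deviations of HU and untreated arrays of the same number correlated at -0.03 to 0.78 (median 0.19) in 18 condition pairs, over 0.1 in 13. They ran from 0.52 to 0.78 in WT and from -0.03 to 0.41 in the other strains, so the numbers do not pair all samples.

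Of 139 named values, 49 kept their call in every setting. Of 1616 comparisons with alternatives, 1416 kept the call, 184 lost it and 16 reversed. With quantile normalization rps2802 at 40 over 0 min reversed (0.20). The other 15 reversed without repeat 2, and over the samples left out ran, for rad3 minus WT, from -1.47 to 0.28 (rpl1602), -1.31 to 0.23 (rpl1601), -1.34 to 0.29 (rps1002), -1.11 to 0.15 (rps3), -1.30 to 0.34 (rpl31), -1.15 to 0.19 (rps901) and -0.52 to 1.05 (rps23-rps2302), for cds1 minus WT from -1.17 to 0.058 (rpl1601-rpl1603), and for chk1 minus WT from -1.01 to 0.069 (rpl1601), -0.89 to 0.066 (rpl14), -0.83 to 0.018 (rpl26), -0.84 to 0.048 (rps3), -1.27 to 0.020 (rpl1601-rpl1603), -1.22 to 0.17 (rpl1602-rpl1603) and -0.74 to 0.059 (rpl2501-rpl2502). Mutant minus WT and WT at 120 and 200 min could not be fitted without WT.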
